A study of Mus musculus with 8 samples.

Results

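The 8 genes described here encode signals that act on blood vessels: the vascular endothelial growth factor (VEGF) ligands Vegfa, Vegfb and Pgf, the angiopoietins Angpt1 and Angpt2, the apelin receptor ligands Apln and Apela, and the apelin receptor Aplnr. They were picked by gene symbol from the 24963 genes of the deposited table, and Apela was included because its mRNA was lower without Nr2f2. The difference of Apela between the genotypes is therefore given as a description, with no test.

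The mRNA was measured in whole uteri of C57B6/J mice at gestation day 3.5 (GD3.5), with 1 library for each of 4 Nr2f2 f/f mice and 4 Nr2f2 d/d mice. Nr2f2 f/f mice carried loxP-flanked Nr2f2 alleles without Cre, are labelled WT and served as controls. Nr2f2 d/d mice carried the same alleles with Pgr Cre/+, a Cre recombinase knocked into the progesterone receptor gene, so that Nr2f2, which encodes the nuclear receptor COUP-TFII, was deleted in Pgr-expressing cells and not in every cell of the uterus. Females of both genotypes were mated at 8 weeks of age per the labels, or 2 to 3 months per the methods of the study, with vasectomized males and so carried no embryos. GD0.5 was the morning of the vaginal plug. The controls had no Cre allele, so the loss of Nr2f2 and the Pgr Cre/+ allele cannot be told apart.

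Growing blood vessels follow VEGF, which endothelial cells sense through the receptor Kdr, while Flt1 binds Vegfa, Vegfb and Pgf. Angpt1 activates the endothelial receptor Tek and steadies vessels, and Angpt2, made by activated endothelium, usually blocks that signal. Apelin and Elabela, the products of Apln and Apela, both bind Aplnr, a receptor of endothelial and some mesenchymal cells. Around implantation the uterine stroma becomes more permeable and vascular under ovarian hormones.

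All values are FPKM, fragment counts scaled to transcript length and to the library total, which allow levels of different genes to be compared per length. The 8 libraries held between about 61400000 and 92600000 fragments, as recovered from the step size of short genes. Nr2f2 itself averaged 24.1 ± 1.80 FPKM in the controls against 8.93 ± 1.36 in Nr2f2 d/d uteri (SD, n = 4 each), so that 37.1% was left. Within the Nr2f2 f/f group, replicates 1 and 2 stood apart from replicates 3 and 4 in Prss29, Igfbp3 and some other genes. Prss29, a protease gene of the uterine glands with the near-identical neighbour Prss28, was at 244 and 1444 FPKM in replicates 1 and 2 against 2.80 and 2.05 in replicates 3 and 4. Igfbp3, which encodes a binding protein of insulin-like growth factors, was at 183 and 912 against 42.8 and 44.4. Not every gene split this way: Lif, another gland gene, was at 12.2, 0.647, 9.48 and 9.86 FPKM in Nr2f2 f/f replicates 1 to 4. Nr2f2 d/d replicate 4 was the highest of its group for Prss29, at 41.6 FPKM. The log2 differences of the 8 genes, and other values that moved most, are also given without Nr2f2 f/f replicates 1 and 2, an alternative chosen after seeing the data.

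Windows of 250 bases before a RefSeq start of 3 ligand genes are shown. They were chosen because those of Pgf and Vegfb hold the hexamers that COUP-TFII binds and that of Apela, with the lowest remaining share, does not. They were read from RefSeq for GRCm38.p6, run 5′ to 3′ on the strand of the gene, and carry AGGTCA or GGGTCA, searched on both strands, in capitals (TGACCC is GGGTCA on the opposite strand). The windows are chr8:65037337-65037586 on the minus strand for Apela, chr12:85177314-85177563 on the minus strand for Pgf and chr19:6987652-6987901 on the minus strand for Vegfb. This window of Pgf lies inside the gene coordinates given below, which come from GENCODE, and so belongs to an inner RefSeq start. The same holds for a second window of Pgf and for the Vegfa window chr17:46025164-46025413.
Apela: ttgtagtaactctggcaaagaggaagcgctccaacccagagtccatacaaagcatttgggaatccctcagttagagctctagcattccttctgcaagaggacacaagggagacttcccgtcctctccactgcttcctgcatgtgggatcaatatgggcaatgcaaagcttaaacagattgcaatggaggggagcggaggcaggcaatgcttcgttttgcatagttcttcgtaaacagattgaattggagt
Pgf: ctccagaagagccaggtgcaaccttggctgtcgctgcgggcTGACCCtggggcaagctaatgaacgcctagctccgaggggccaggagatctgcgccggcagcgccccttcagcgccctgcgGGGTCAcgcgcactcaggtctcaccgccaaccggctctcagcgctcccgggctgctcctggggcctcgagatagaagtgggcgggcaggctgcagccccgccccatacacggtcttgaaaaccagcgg
Vegfb: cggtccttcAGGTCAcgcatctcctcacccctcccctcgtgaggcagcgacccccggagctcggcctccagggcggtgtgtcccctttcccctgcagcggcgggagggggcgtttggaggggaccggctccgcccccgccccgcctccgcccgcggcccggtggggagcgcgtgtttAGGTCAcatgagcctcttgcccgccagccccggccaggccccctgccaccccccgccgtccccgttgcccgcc

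The window of Pgf held 2 GGGTCA, at bases 128 to 123 before the start on the strand of the gene and at bases 209 to 204 on the opposite strand. The window of Vegfb held 2 AGGTCA, at bases 241 to 236 and 73 to 68. Neither hexamer was found in the 250 bases of Apela, in either window of Vegfa, in that of Apln or in a second window of Pgf. Of all 32851 windows of this length, 23.9% held AGGTCA or GGGTCA, 14.02% held AGGTCA and 11.7% held GGGTCA. In all, 5 of the 8 genes matched a window, and Angpt1, Angpt2 and Aplnr were not matched. A match is a stretch of letters, and binding at it was not measured in these libraries.

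Among the VEGF ligands Vegfa had the highest mean level in both genotypes. Vegfa (chr17:46016993-46032369, minus strand, mm10), the main driver of vessel growth and permeability, was at 29.8, 22.1, 35.02 and 28.1 FPKM in Nr2f2 f/f replicates 1 to 4 and at 42.7, 30.8, 38.3 and 27.3 FPKM in Nr2f2 d/d replicates 1 to 4. The groups overlapped: Nr2f2 d/d replicates 1 and 3 lay above every control, and replicates 2 and 4 lay among them. The mean was 28.7 ± 5.33 FPKM against 34.8 ± 7.02 (SD, n = 4 each). The log2 difference, Nr2f2 d/d minus Nr2f2 f/f, of FPKM + 0.5 was 0.27 (SE 0.177), which did not pass the test (limma, Benjamini-Hochberg adjusted p = 0.414 over the 14323 genes tested), and its 95% interval ran from a fold of 0.909 to 1.59.

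Vegfb (chr19:6982473-6987651, minus strand) encodes a Flt1 ligand linked to lipid handling more than to sprouting. Of the 8 genes it varied the least among the controls (SD 9.32% of the mean). In Nr2f2 d/d, Angpt2 varied slightly less (9.37% against 9.65% for Vegfb). Vegfb was at 13.6, 14.5, 16.5 and 16.4 FPKM in Nr2f2 f/f, against 14.9, 15.5, 12.5 and 15.4 FPKM in Nr2f2 d/d. The highest control was only 1.21-fold above the lowest, and 3 of the 4 Nr2f2 d/d libraries lay within the range of the controls. The log2 difference was -0.06 (SE 0.097, limma adjusted p = 0.741, 95% interval -0.29 to 0.16).

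Pgf (chr12:85166635-85177790, minus strand), placental growth factor, binds Flt1 and not Kdr. It was at 23.4, 26.8, 5.77 and 6.88 FPKM in Nr2f2 f/f, against 3.76, 4.26, 2.68 and 9.29 FPKM in Nr2f2 d/d. The controls split into replicates 1 and 2, which were high, and replicates 3 and 4, which lay close to the Nr2f2 d/d libraries, and Nr2f2 d/d replicate 4 lay above these last controls. The group mean was 15.7 ± 10.9 FPKM in the controls and 4.996 ± 2.94 in Nr2f2 d/d, or 31.8% of the control. The log2 difference of -1.40 (SE 0.561) did not pass after adjustment (limma p = 0.037, adjusted p = 0.208, exact permutation p = 0.114), and its 95% interval was wide, -2.68 to -0.11. With Nr2f2 f/f replicates 1 and 2 left out it was -0.44 (limma adjusted p = 0.672), with 79.0% of the control mean left. Prss29 and Igfbp3, as given above, were high in the same controls, and their part in the Pgf values was not tested.

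The angiopoietins showed no difference that passed the test. Angpt1 (chr15:42424723-42676977, minus strand), made by pericytes and other perivascular cells, was among the least abundant of the 8 genes, with 0.968, 1.14, 1.32 and 1.51 FPKM in the controls and 0.926, 1.36, 0.870 and 1.74 in Nr2f2 d/d. The Nr2f2 d/d libraries lay on both sides of the controls. The log2 difference was -0.03 (SE 0.184, limma adjusted p = 0.943, 95% interval -0.45 to 0.39). Of its exon bases 14.2% are shared with Gm17473, a gene on the opposite strand, and the strand setting of the counting was not given in the sources used here.

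Angpt2 (chr8:18690263-18741562, minus strand) was at 3.34, 7.33, 3.32 and 3.03 FPKM in Nr2f2 f/f, against 3.33, 2.89, 2.67 and 2.91 FPKM in Nr2f2 d/d. Nr2f2 f/f replicate 2 lay far above the other 7 libraries, and 3 of the 4 Nr2f2 d/d libraries lay below every control, by narrow margins. The mean was 4.25 ± 2.06 against 2.95 ± 0.276 FPKM and the log2 difference -0.38 (SE 0.244, limma adjusted p = 0.398). Without Nr2f2 f/f replicate 2 the log2 difference was -0.11 (limma adjusted p = 0.516).

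Apln (chrX:48025146-48034853, minus strand), apelin, is known from the tip cells of growing vessels. It was at 1.70, 0.614, 2.44 and 2.80 FPKM in Nr2f2 f/f, against 1.83, 1.51, 1.51 and 1.38 FPKM in Nr2f2 d/d. All 4 Nr2f2 d/d libraries lay between the lowest control, replicate 2, and the high controls, replicates 3 and 4. The log2 difference was -0.11 (SE 0.314, limma adjusted p = 0.876, 95% interval -0.83 to 0.62). Without Nr2f2 f/f replicate 2 it was -0.44 (limma adjusted p = 0.185), and without replicate 1 as well it was -0.60 (0.114).

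Apela (chr8:65028417-65037336, minus strand), which encodes Elabela, was lower in every Nr2f2 d/d library than in any control. It was at 4.06, 8.03, 1.57 and 1.85 FPKM in Nr2f2 f/f, against 0.299, 0.431, 0.221 and 0.632 FPKM in Nr2f2 d/d. Replicates 1 and 2 were again the high controls, and the highest Nr2f2 d/d library, replicate 4, lay below the lowest control, replicate 3. The mean was 3.88 ± 2.98 FPKM in the controls and 0.396 ± 0.1798 in Nr2f2 d/d, or 10.2% of the control. The log2 difference was -2.07 (SE 0.429) with 0.5 FPKM added and -2.78 with 0.1 added, since the added value weighs on low levels. These levels correspond to about 114 to 496 fragments per control and 19 to 58 per Nr2f2 d/d library, above the 3 fragments taken as the limit of a count of 0, for counting error only. Without Nr2f2 f/f replicates 1 and 2 the log2 difference was -1.32, and 23.2% of the control mean was left. In the annotation 29.6% of the exon bases of Apela are shared with Gm45886 on the same strand, so its level carries that uncertainty.

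Aplnr (chr2:85136225-85139923, plus strand) was the most abundant of the 8 genes in Nr2f2 f/f uteri and fell in Nr2f2 d/d uteri. It was at 71.0, 39.0, 43.9 and 47.4 FPKM in Nr2f2 f/f, against 20.9, 16.4, 27.8 and 22.2 FPKM in Nr2f2 d/d. The groups did not overlap, with the highest Nr2f2 d/d library, replicate 3, below the lowest control, replicate 2. The mean was 50.3 ± 14.2 FPKM against 21.8 ± 4.66, or 43.4% of the control, and the log2 difference was -1.17 (SE 0.211, 95% interval -1.66 to -0.69). It passed the test across all genes (limma adjusted p = 0.0328), and the two-sided exact permutation test gave p = 0.0286, the smallest that 4 against 4 libraries allow. The adjusted p stayed under the threshold when Nr2f2 f/f replicate 2 (0.0357) or Nr2f2 d/d replicate 3 (0.0402) was omitted, and it lay between 0.0570 and 0.0968 (limma) when any of Nr2f2 f/f replicates 1, 3 and 4 or Nr2f2 d/d replicates 1, 2 and 4 was left out, with log2 differences from -1.29 to -1.0 over all 8 omissions. With Nr2f2 f/f replicates 1 and 2 both omitted, the log2 difference was -1.07 (limma adjusted p = 0.0915), with 47.8% left. In whole tissue, fewer cells of a type and less RNA per cell cannot be told apart.

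**Figure D1:**
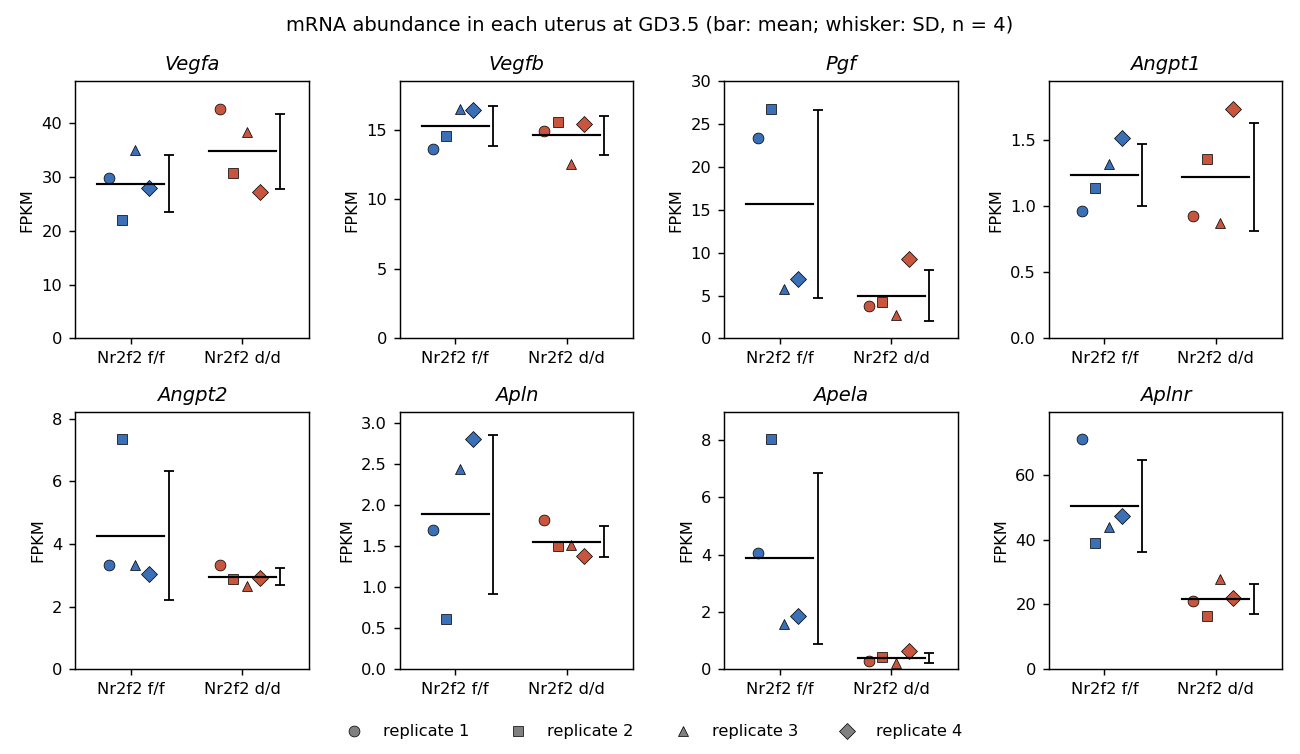
FPKM (vertical axes, linear and from 0) of each of the 8 genes in the 4 Nr2f2 f/f (blue) and 4 Nr2f2 d/d (red) uteri, with marker shapes for the replicate number, horizontal bars for the mean and whiskers for the SD. The colours separate fully for Aplnr (39.0 FPKM and above against 27.8 and below) and Apela (1.57 and above against 0.632 and below), while Pgf and Apela share the high Nr2f2 f/f replicates 1 and 2.

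Of the 14323 genes tested, 2.62% passed the adjusted test in either direction and of all genes 1.53% did so with a lower and 1.09% with a higher level in Nr2f2 d/d. Leaving Apela aside, Aplnr was the member that passed. The ranges of the genotypes did not overlap for 15.4% of all genes tested, split into 9.91% with Nr2f2 d/d lower and 5.49% with it higher. Leaving Apela aside again, Aplnr was the member without overlap. The looser threshold that the study applied to its counts, an unadjusted p under 0.05 with a fold of at least 1.4, was applied here to limma and was met by Pgf and Aplnr of the 7 tested members, both lower, against 8.8% of all genes (4.1% lower and 4.7% higher). The median log2 difference of the 7 genes other than Apela was -0.11, with 6 lower and 1 higher, and that of all genes tested was -0.02 with 53.3% lower.

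The order of the levels was not the same in both genotypes. In Nr2f2 f/f it ran from Aplnr through Vegfa, Pgf, Vegfb, Angpt2, Apela and Apln to Angpt1. The ranges over the 4 libraries were separate only between Aplnr and Vegfa and between Vegfb and Angpt2, and each of the other neighbours overlapped. In Nr2f2 d/d it ran from Vegfa through Aplnr, Vegfb, Pgf, Angpt2, Apln and Angpt1 to Apela. There, Vegfa was above Aplnr in 4 of 4 libraries although the ranges overlapped, Pgf overlapped Angpt2 and Apln overlapped Angpt1, and the other neighbours were separate.

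Ratios within a library do not depend on its total, and they put the ligands of a shared receptor side by side. Pgf made up 34.98%, 42.3%, 10.1% and 13.4% of the summed FPKM of Vegfa, Vegfb and Pgf in Nr2f2 f/f and 6.13%, 8.42%, 5.002% and 17.9% in Nr2f2 d/d. Again controls 1 and 2 were high and Nr2f2 d/d replicate 4 lay above controls 3 and 4. The log2 ratio of Pgf to Vegfa differed by -1.66, which the two-sided exact permutation test did not separate (p = 0.114). Without controls 1 and 2 it was -0.57 (exact permutation p = 0.533), and it ran from -2.12 to -1.19 with any 1 library left out. The summed FPKM of the 3 ligands was 59.7 ± 6.84 in controls and 54.3 ± 4.84 in Nr2f2 d/d uteri (SD, n = 4 each).

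Apela took 70.5%, 92.9%, 39.1% and 39.8% of the summed FPKM of the 2 Aplnr ligands in Nr2f2 f/f and 14.1%, 22.2%, 12.7% and 31.4% in Nr2f2 d/d. The sum itself was 5.76 ± 2.05 FPKM in the controls and 1.95 ± 0.164 in Nr2f2 d/d. Both are descriptions, since Apela was chosen for its fall. The Angpt2 to Angpt1 ratio of FPKM was 3.60 ± 1.98 in the controls and 2.61 ± 0.874 in Nr2f2 d/d uteri, and the log2 ratio differed by -0.35 (two-sided exact permutation p = 0.429). It differed by -0.06 without Nr2f2 f/f replicate 2 and turned to 0.09 without controls 1 and 2. Angpt2 exceeded Angpt1 in all 8 libraries.

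**Figure D2:**
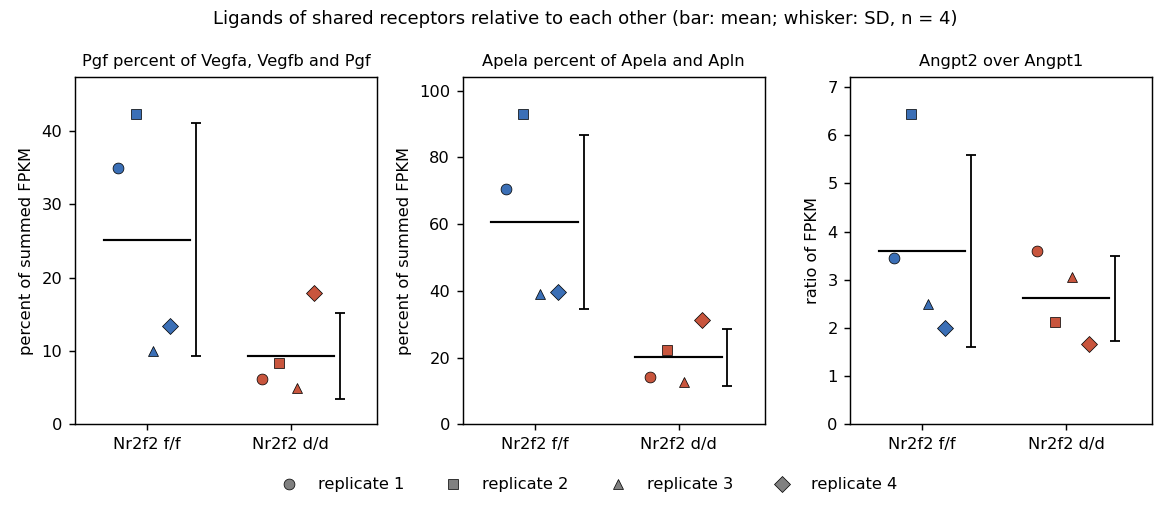
Left and middle, the percent of summed FPKM that Pgf takes among the VEGF ligands and that Apela takes among the Aplnr ligands, and right, the ratio of Angpt2 to Angpt1 FPKM, in Nr2f2 f/f (blue) and Nr2f2 d/d (red) uteri, with bars for the mean and whiskers for the SD (n = 4). The share of Apela is 39.1% or more in every control and 31.4% or less in every Nr2f2 d/d library, while the other panels overlap.

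The receptors of the VEGF and angiopoietin ligands were lower on the whole. Of 8 receptor genes, 7 had a lower and 1 a higher mean log2 level in Nr2f2 d/d. The median log2 difference was -0.63, and Kdr and Nrp2 fell past the adjusted test, which 1.53% of all genes passed with a lower level. The ranges did not overlap for 6 of the 8, all lower, against 9.91% of all genes. Nrp2, a VEGF co-receptor of veins and lymphatics, was at 5.07, 5.39, 4.86 and 5.09 FPKM in Nr2f2 f/f, against 3.04, 2.95, 3.12 and 3.19 FPKM in Nr2f2 d/d. Both groups were tight and lay well apart, with a log2 difference of -0.65 (SE 0.069, limma adjusted p = 0.00795) that passed in 8 of 8 fits that left out 1 library. With Nr2f2 f/f replicates 1 and 2 both omitted it was -0.62 (limma adjusted p = 0.0651), and no gene of the pathway lists passed then.

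Kdr, the main VEGF receptor of endothelium, was at 16.2, 13.6, 11.3 and 13.8 FPKM in Nr2f2 f/f, against 8.24, 7.79, 10.5 and 7.89 FPKM in Nr2f2 d/d. The lowest control, replicate 3, lay just above the highest Nr2f2 d/d library, which was also a replicate 3. The log2 difference was -0.64 (SE 0.13, limma adjusted p = 0.0457), and it stayed past the threshold in 2 of the 8 fits, those that omitted Nr2f2 f/f replicate 3 (0.0472) or Nr2f2 d/d replicate 3 (0.0385). With every library kept, Kdr did not pass under median-ratio scaling (limma adjusted p = 0.0508), quantile normalization (0.0520) or without the filter on low values (0.0603). Tie1, the partner of Tek, had a log2 difference of -0.67 (limma adjusted p = 0.0526). Flt1, Tek, Ptprb, Nrp1 and Flt4 did not pass either, with log2 differences of -0.46, -0.74, -0.61, -0.30 and 0.18, the last for the lymphatic VEGF receptor.

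Other ligands of these receptors were split, with 3 of 6 tested genes lower, a median log2 difference of 0.09 and none called by limma at the adjusted threshold or at an unadjusted p under 0.05, which 21.2% of all genes tested passed in either direction. Vegfd, a Flt4 ligand, had a log2 difference of -0.47, and the semaphorins Sema3f and Sema3a, which bind neuropilins, had 0.29 and 0.33. Of 7 tested enzymes that cut apelin or VEGF or free VEGF from matrix, 4 were lower and 0 were called by limma, with 1 at an unadjusted p under 0.05 and a median of -0.01. Pcsk5, a proprotein convertase, had a log2 difference of -0.52, Mmp9, a matrix protease, 0.50 and Hpse, heparanase, 0.35. With 1 library left out, Vegfd ran from -0.73 to -0.33, Sema3a from 0.20 to 0.45, Pcsk5 from -0.66 to -0.33, Mmp9 from 0.35 to 0.68 and Hpse from 0.21 to 0.61, with none called.

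Hypoxia response genes, a group to which Vegfa itself is known to belong, were mixed. Of 20, 8 were lower and 12 higher, with a median log2 difference of 0.07. Only 1, lower, was called by limma, against 1.53% of all genes. At an unadjusted p under 0.05 were 2 lower and 4 higher, against 21.2% of all genes in either direction. Epas1, which encodes a hypoxia-inducible factor subunit abundant in endothelium, averaged 33.4 ± 6.94 FPKM in controls and fell to 18.9 ± 1.78, a log2 difference of -0.78 (limma adjusted p = 0.0366) that passed in 1 of the 8 fits that left out 1 library, the fit without Nr2f2 f/f replicate 3 (0.0429). Car9, a carbonic anhydrase, had a log2 difference of 0.69 (limma adjusted p = 0.0861). Ndrg1, a stress-induced gene, had -1.48 (limma adjusted p = 0.146) and was at 62.3 and 160 FPKM in Nr2f2 f/f replicates 1 and 2, the controls high for Pgf and Apela, against 31.5 and 33.3 in replicates 3 and 4. The Ndrg1 difference was -0.99 without Nr2f2 f/f replicate 2 and -0.68 with control 1 omitted as well.

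Of 13 tip cell genes, 8 were lower and 5 higher, with a median of -0.22, and 0 were called by limma, with 3 lower and 1 higher at an unadjusted p under 0.05, which 21.2% of all genes passed. Unc5b, a netrin receptor, had a log2 difference of 0.75 (limma adjusted p = 0.0924), Pdgfb, the factor that recruits pericytes, had -0.32 (0.113) and Igfbp3 had -2.36 (0.193). The Igfbp3 difference was -1.43 without Nr2f2 f/f replicate 2 and -0.75 with control 1 omitted as well. Of 15 angiogenesis inhibitors, 9 were lower and 6 higher with a median of -0.09, and 1, lower, was called, against 1.53% of all genes. The ranges did not overlap for 3 lower and 1 higher, against 9.91% and 5.49% of all genes. At an unadjusted p under 0.05 were 4 lower and 2 higher, against 21.2% of all genes in either direction. The 2 higher, named after their values were seen, were the matrix protein gene Sparc with a log2 difference of 0.73 and no overlap, and Serpinf1 with 0.53, neither called after adjustment. Col18a1, the collagen that yields endostatin, fell from 95.4 ± 7.88 to 34.03 ± 6.82 FPKM, a log2 difference of -1.49 (limma adjusted p = 0.00653) that passed in 8 of 8 fits that left out 1 library. Timp3, a metalloprotease inhibitor that also blocks VEGF at Kdr, and Col4a3, which yields tumstatin, had -0.59 and -0.55 and did not pass, although Col4a3 did under quantile normalization (limma adjusted p = 0.0359) and without the trend (0.0404).

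**Figure D3:**
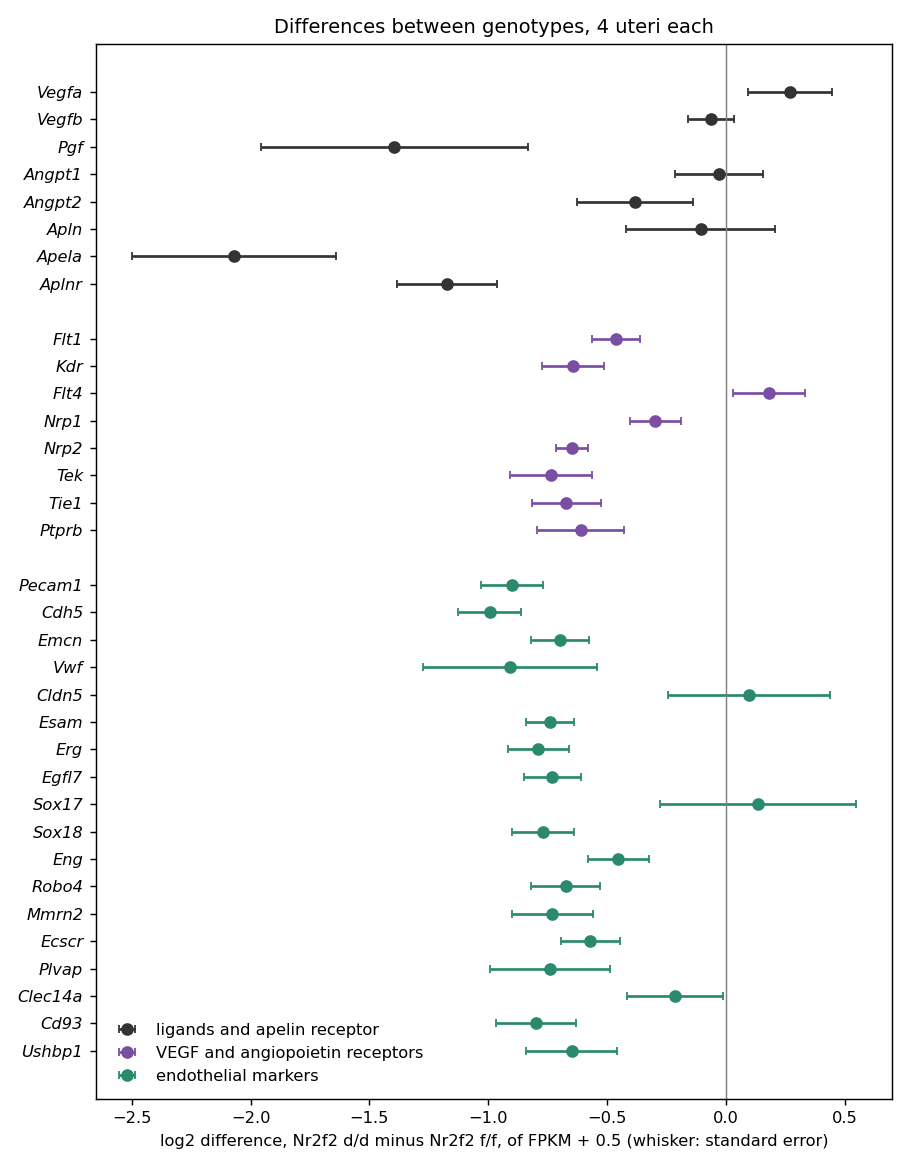
Log2 difference, Nr2f2 d/d minus Nr2f2 f/f, of FPKM + 0.5 (horizontal axis) for the 8 genes (black), the 8 VEGF and angiopoietin receptors (purple) and 18 endothelial markers (green), with whiskers for the standard error of the limma fit (4 uteri each). Apela (-2.07), Pgf (-1.40) and Aplnr (-1.17) lie farther left than any receptor or endothelial marker, and the error of Pgf is wide.

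Markers of blood vessel cells moved with Aplnr. Of 18 endothelial markers, 16 were lower and 7 fell past the adjusted test (Cdh5, Esam, Pecam1, Erg, Egfl7, Sox18 and Emcn), against 1.53% of all genes. The ranges of 13 of the 18 did not overlap, all lower, against 9.91% of all genes, and the median log2 difference was -0.73. Their summed level was 615 to 788 FPKM in the controls and 422 to 468 FPKM in Nr2f2 d/d, and no marker was at 0. Pecam1, a junction protein of all endothelium, fell from 58.8 ± 9.62 to 31.0 ± 3.46 FPKM, and Cdh5, the endothelial cadherin, fell from 55.3 ± 5.27 to 27.8 ± 5.09 FPKM (limma adjusted p = 0.0192 and 0.0149). Cldn5 and Sox17, the latter also expressed by uterine epithelium, had log2 differences of 0.10 and 0.14. They stay in the marker mean below, and a mean without them was not tested. Sox17 was lowest within its group in Nr2f2 f/f replicate 2 (33.1 FPKM) and Nr2f2 d/d replicate 3 (34.1 FPKM). The number called depended on single libraries: omitting Nr2f2 f/f replicate 1 or 4 left 1, omitting Nr2f2 d/d replicate 1 or 2 left 0, and omitting any other left 5 to 8. With Nr2f2 f/f replicates 1 and 2 both omitted, 0 endothelial markers were called, and the marker mean below differed by -0.44.

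The mean log2 level of the 18 markers was 5.12, 4.97, 4.69 and 4.69 in Nr2f2 f/f and 4.18, 4.15, 4.34 and 4.33 in Nr2f2 d/d. The groups did not overlap, and the difference of -0.62 had the smallest p that the two-sided exact permutation test allows (0.0286). As the groups are separate, leaving out any 1 library gives the smallest p again by construction. The markers of this mean were chosen with earlier results of these data known. Set against this mean in the same library, the log2 level of Aplnr was 1.04, 0.33, 0.79 and 0.89 above it in Nr2f2 f/f and 0.24, -0.07, 0.48 and 0.17 in Nr2f2 d/d. Of the 4 Nr2f2 d/d libraries 3 lay below every control, and replicate 3 lay above Nr2f2 f/f replicate 2. The difference of -0.56 did not pass (two-sided exact permutation p = 0.0571), and it passed in 1 of the 8 tests that left out 1 library, that without Nr2f2 f/f replicate 2 (-0.70, exact permutation p = 0.0286, the smallest possible). The other 7 gave -0.65 to -0.46 (exact permutation p 0.0571 to 0.0857), and omitting controls 1 and 2 gave -0.63 (exact permutation p = 0.0667, the smallest possible). For Apln and Angpt2 the same differences were 0.51 (exact permutation p = 0.371) and 0.24 (exact permutation p = 0.429). That of Apln was 0.15 when control 2 was omitted and -0.16 when controls 1 and 2 were, and that of Angpt2 ran from 0.08 with control 1 omitted to 0.47 with control 2 omitted.

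**Figure D4:**
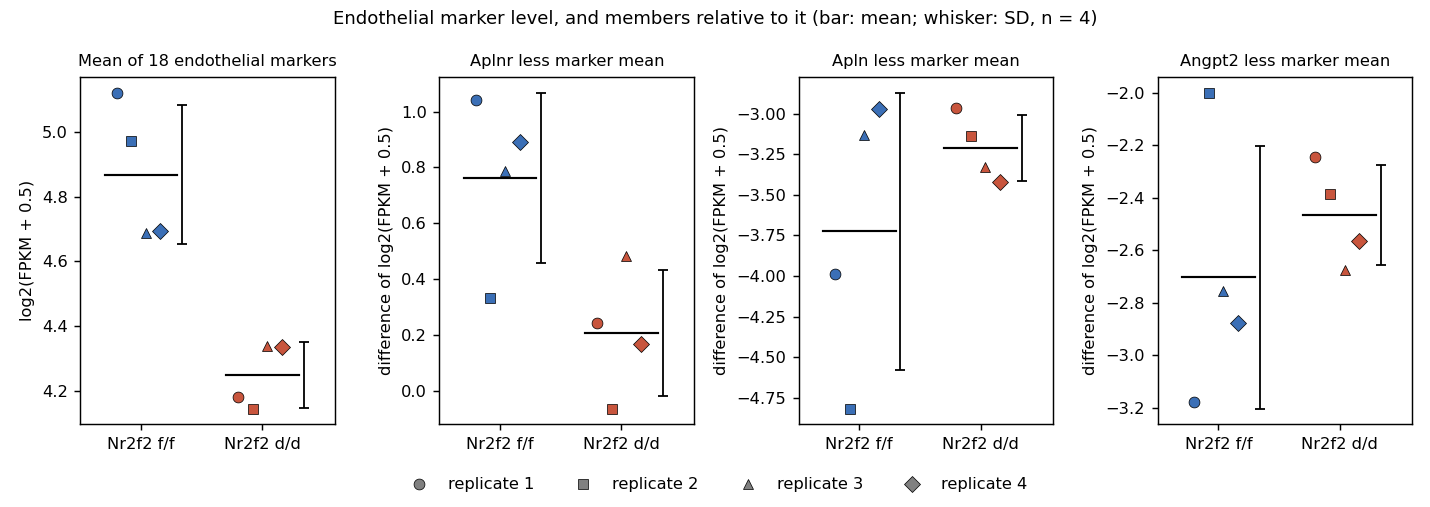
Mean log2(FPKM + 0.5) of 18 endothelial markers per uterus (left) and the log2 level of Aplnr, Apln and Angpt2 less that mean in the same uterus (the other panels; axes do not start at 0), in Nr2f2 f/f (blue) and Nr2f2 d/d (red), with bars for the mean and whiskers for the SD (n = 4). The marker mean separates the genotypes (4.69 and above against 4.34 and below), whereas Aplnr less the mean overlaps through Nr2f2 f/f replicate 2 (0.33) and Nr2f2 d/d replicate 3 (0.48).

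Markers of the other cells of the uterus were read beside these values. Of 9 pericyte markers 8 were lower, with a median of -0.39, and Rgs5 fell from 144 ± 13.8 to 90.3 ± 7.28 FPKM (limma adjusted p = 0.0154). Of 7 lymphatic markers 4 reached the level for testing, 0 were lower and 0 were called by limma, with 1 higher at an unadjusted p under 0.05, and Ccl21a was listed at 0. Reln, the lymphatic gene with the smallest p, had a log2 difference of 0.50. Epithelial markers were higher in 9 of 10, with Krt8 and Elf3 called. Of all genes, 1.09% were called higher, and 53.3% had a lower mean log2 level, called or not. The summed levels of the epithelial markers were 835 to 865 FPKM in the controls and 1019 to 1194 in Nr2f2 d/d. Macrophage and NK cell markers were higher in 8 of 10, with Gzmb called against the same shares, and summed levels of 78.9 to 116 and 124 to 359 FPKM. Most of that sum in Nr2f2 d/d came from the granzymes Gzmb and Gzma, and the other 8 markers summed to 48.3 to 74.0 FPKM in the controls and 49.99 to 80.4 in Nr2f2 d/d.

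Stromal markers went both ways. Of 11, the deleted gene Nr2f2 itself and Hand2, a progesterone-dependent factor of the stroma, were called lower. The matrix genes Dcn and Col1a2 were called higher. Of all genes, 1.53% were called lower and 1.09% higher. The ranges did not overlap for 2 lower and 4 higher stromal markers, against 9.91% and 5.49% of all genes. The calls of Hand2, Col1a2, Gzmb and the epithelial Elf3 each held in 2 of the 8 fits that left out 1 library, those of Dcn and Rgs5 in 4 and 5, and that of Krt8 in 8. Hand2, Col1a2 and Elf3 were also lost without the filter on low values (limma adjusted p = 0.0514, 0.0715 and 0.0585), and Col1a2 with a filter at 1 FPKM (0.0502), quantile normalization (0.0611) or robust estimation (0.0509). Of 10 smooth muscle markers 2 were lower, with a median of 0.14, and Cnn1, a contractile protein gene, had 0.38. None of the smooth muscle or gland markers was called by limma, nor at an unadjusted p under 0.05. The genes Hba-a1 and Hbb-bs were listed at 0 in every library, so no level of blood could be read from them, and 0 of the 3 tested platelet and erythroid markers was called by limma, 0 at an unadjusted p under 0.05. Alas2, an enzyme gene of haem synthesis, had -0.54. The part of these cell types in the values of the 8 genes was not tested.

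Among themselves some of the 8 genes varied together and others did not. After the mean of each genotype was removed, the log2 levels of Pgf and Apela had a Pearson correlation of 0.916 over the 8 libraries, and in both genotypes the libraries fell in the same order for both genes (Nr2f2 f/f 2, 1, 4, 3 and Nr2f2 d/d 4, 2, 1, 3, from high to low). The correlation was 0.817 for Angpt2 with Apela and 0.769 for Vegfb with Angpt1. Many other genes were closer, since among 13211 genes Apela ranked 148 for Pgf, Angpt2 837 for Apela and Angpt1 663 for Vegfb. Apln ran the other way, at -0.938 with Apela and -0.895 with Angpt2. For Aplnr the correlations with Pgf, Apela and Apln were 0.084, -0.13 and 0.21. These are descriptions over the same 8 libraries. Nr2f2 f/f replicate 2 was the lowest control for Vegfa, Apln and Aplnr and the highest for Pgf, Angpt2 and Apela.

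The genes of the whole table whose residual pattern was most like that of a member are named by the same measure, the Pearson correlation over 8 libraries among 13211 genes. They were Dnajc5 and Usp46 for Vegfa (0.978 and 0.977), Ganc and Zfp273 for Vegfb (0.991 and 0.985) and Arid5a and Zfp608 for Pgf (0.997 and 0.996). Cdc42ep3 and Kank4 led for Angpt1 (0.99 and 0.985) and Zfp949 and Edem2 for Angpt2 (0.994 and 0.991). For the apelin genes they were Shkbp1 and Ripk1 for Apln (0.989 and 0.986), Zfp422 and Rsph9 for Apela (0.995 and 0.991) and Rgl1 and Gabpb1 for Aplnr (0.968 and 0.964).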

How the data were processed

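RNA of whole GD3.5 uteri from 4 Nr2f2 f/f and 4 Nr2f2 d/d mice was sequenced as 76-bp read pairs. The authors deposited FPKM values. They trimmed the reads with cutadapt 1.12, aligned them to mm10 with STAR 2.5.2b and counted fragments with featureCounts 1.5.0-p1 of Subread. The submitters' processing notes also name Cufflinks 2.0.2. The annotation, strand setting and FPKM formula were not given in the sources used here. As FPKM depend on the library total, very abundant transcripts shift all others. Replicate numbers are those of the sample titles, and 0 columns of values were left unmatched.

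The 14323 genes of 24963 that averaged 0.5 FPKM or more were tested on log2(FPKM + 0.5), on which folds of low genes are understated, with limma 3.58.1 in R 4.3.3 (lmFit, eBayes with trend, two-sided, Benjamini-Hochberg over all tested genes, adjusted p under 0.05). This replaces the count test of the study, since no counts were used here. Single measures were compared by two-sided exact permutation over the 70 arrangements of the libraries in Python 3.11.15 with scipy 1.17.1. The fit and the depth estimate were tested on simulated data. Depth came from short single-exon genes, for which 97.5 to 98.5% of values were whole fragments within 0.1. Coordinates are those of GENCODE release 21 for mouse, made for the same build. The mice are separate, and p-values measure the spread between them.

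Besides the 8 genes and Nr2f2, the text names the called genes of each of 6 pathway lists (at least the 3 with the smallest p), the called or leading gene of each of 9 marker lists and the 2 genes most like each member. Other receptors, Cldn5, Sox17, Lif and the genes listed at 0 were named after their values were seen. The members and lists were chosen with earlier results of these data known. Lists are described by counts and medians, and only the mean of the endothelial markers was tested, by exact permutation. Alternatives were another added value, another or no filter, other scalings, no trend, a replicate block and each library left out, with the joint omission of Nr2f2 f/f replicates 1 and 2 added after seeing the data.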

Additional observations from a re-analysis of the deposited data

Results flagged for a closer look

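Angpt2 in Nr2f2 f/f replicate 2, at 7.334 FPKM, lay far from the other 3 controls: its gap to the nearest of them was 0.927 of the range of the group, above Dixon's 95% critical value for a group of 4. It was the only 1 of the 28 groups examined to do so, and chance alone gives about 1 such group in 20.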

How the results depend on the processing

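Vegfa, Pgf, Angpt2, Apela and Aplnr kept their direction under every alternative run. The Apela log2 difference was -2.78 with 0.1 FPKM added, from -2.35 to -1.67 with 1 library left out, and -1.32 without Nr2f2 f/f replicates 1 and 2. Aplnr ran from -1.29 to -1.0 with 1 library left out (limma adjusted p 0.0357 to 0.0968). The small differences changed sign when 1 library was left out, with ranges of -0.12 to 0.0 for Vegfb, -0.17 to 0.07 for Angpt1 and -0.44 to 0.09 for Apln, none of which passed the test. With 1 library left out, limma called 42 to 348 genes in all (375 with every library), 2 to 5 of the pathway lists (4) and 2 to 15 of the marker lists (15), and Aplnr less the endothelial marker mean was -0.70 to -0.46. Without Nr2f2 f/f replicates 1 and 2 these counts were 24, 0 and 1, Aplnr was -1.07 (limma adjusted p = 0.0915), the endothelial marker mean differed by -0.44 (exact permutation p = 0.0667, the smallest possible), the Angpt2 to Angpt1 log2 ratio was 0.09 and Apln less the marker mean -0.16. Vegfa, Vegfb, Angpt1 and Angpt2 were then 0.13, -0.17, -0.18 and -0.09, with none called. Fewer libraries also give fewer calls by construction.

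Libraries with the same title number had correlations of their deviations of -0.204, -0.172, 0.045 and -0.04. Those with different numbers ran from -0.321 to 0.279. So few correlations cannot decide whether the numbers of the sample titles pair the mice. The value columns carry other numbers (1, 2, 3 and 5 for Nr2f2 f/f and 1, 3, 4 and 5 for Nr2f2 d/d). The 3 pairs with the same column number had correlations of -0.204, 0.149 and -0.04, which cannot decide it either. With the title number as a replicate block, limma called 1 gene in all, 0 of the pathway lists and 0 of the marker lists, Aplnr was -1.17 (adjusted p = 0.13), and the endothelial marker mean was -0.62 (exact sign-flip permutation p = 0.125, the smallest that 4 pairs allow).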
